A study of Mus musculus with 10 samples.

Results

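The 6 genes described here are Cxcl1, Cxcl2, Cxcl3, Cxcl5, Ppbp and Pf4, which lie together on mouse chromosome 5 and encode CXC chemokines that attract neutrophils or are stored by platelets. They were chosen by name from earlier results of the same arrays, so their differences between groups are given as a description, and calls counted over them support nothing. They are 6 of 18193 genes measured, and 8 probe sets represent them. Where a gene had several probe sets, the one with the highest mean over all 10 arrays was used, and the others were kept as a check. Each array measured the RNA of 1 sample of bone marrow cells from C57BL/6 mice aged 5 to 6 weeks. All cells, the controls included, carried the MigR1 retrovirus with its green fluorescent marker, and had grown in medium with the cytokines IL-3 and SCF, each at 10 ng/ml, and IL-6 at 20 ng/ml. The GFP group received the vector alone (3 arrays). The other groups received AML1/ETO, a leukaemia fusion of the transcription factor AML1 with the corepressor ETO (3 arrays), or the same fusion carrying the substitution W692A (4 arrays), which lies in the MYND domain through which ETO contacts the corepressors SMRT and N-CoR. From each transduction, 25000 live, lineage-negative, Sca1-positive, cKit-positive, GFP-positive cells were sorted 48 hours after the second infection, and 50 ng of RNA was amplified. The question the groups address is how much of the effect of AML1/ETO depends on that contact.

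CXC chemokines are small secreted proteins that guide leukocytes through G protein-coupled receptors. Cxcl1, Cxcl2, Cxcl3, Cxcl5 and the processed forms of Ppbp act on Cxcr2 and recruit neutrophils, and in bone marrow the same ligands help to release neutrophils into the blood. The genes Cxcl1, Cxcl2, Cxcl3 and Cxcl5 are classical targets of NF-κB, induced by interleukin-1, tumour necrosis factor and Toll-like receptor ligands. Their mRNAs are short-lived. Ppbp and Pf4 (platelet factor 4) are made by megakaryocytes, stored in the alpha granules of platelets on the proteoglycan serglycin, and released when platelets are activated. Pf4 binds heparin and related polysaccharides and does not act as a typical neutrophil attractant.

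The promoters are shown because those of Cxcl1, Cxcl2 and Cxcl3 share a sequence that was not found in those of Ppbp and Pf4. The 150 bases before the annotated start come from RefSeq (assembly GRCm38.p6, plus strand), and 5 of the 6 genes matched. Cxcl5 is named only. Capitals mark κB motifs (GGG, any 2 bases, then TTTCC, on either strand) and the TATA box (TATAAA).
Cxcl1, chr5:90891095-90891244: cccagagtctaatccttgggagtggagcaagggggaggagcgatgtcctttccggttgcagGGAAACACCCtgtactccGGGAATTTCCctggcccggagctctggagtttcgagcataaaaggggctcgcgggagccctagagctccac
Cxcl2, chr5:90903749-90903898: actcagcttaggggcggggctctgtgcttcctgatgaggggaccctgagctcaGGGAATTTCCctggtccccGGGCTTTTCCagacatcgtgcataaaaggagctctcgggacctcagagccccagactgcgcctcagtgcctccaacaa
Cxcl3, chr5:90785951-90786100: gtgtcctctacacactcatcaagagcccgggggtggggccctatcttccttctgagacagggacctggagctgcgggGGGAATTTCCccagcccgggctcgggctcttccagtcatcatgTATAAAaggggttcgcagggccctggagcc
Ppbp, chr5:90768368-90768517: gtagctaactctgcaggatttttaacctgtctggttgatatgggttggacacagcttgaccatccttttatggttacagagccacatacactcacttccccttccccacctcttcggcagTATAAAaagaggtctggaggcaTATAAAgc
Pf4, chr5:90772285-90772434: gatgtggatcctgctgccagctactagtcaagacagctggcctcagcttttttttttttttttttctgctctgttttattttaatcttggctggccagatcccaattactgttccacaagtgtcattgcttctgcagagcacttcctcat

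The same 10 bases, GGGAATTTCC, stood at -71 to -62 from the start of Cxcl1, -97 to -88 of Cxcl2 and -73 to -64 of Cxcl3. Cxcl1 held a further κB match on the opposite strand at -89 to -80, and Cxcl2 a further match at -78 to -69. Over the whole table, 535 of 32851 promoters (1.63%) held a κB motif in the 300 bases from 250 before to 50 after the start. The letters of the motif were not found in the windows of Ppbp and Pf4. The exact letters of the TATA box, TATAAA, were found in Cxcl3 and Ppbp and in 13.6% of all promoters. Other forms, such as the letters CATAAA in the printed sequences of Cxcl1 and Cxcl2, were not searched. Other motifs were searched on both strands of the same windows. Pf4 held a GATA motif (AGATAA, in 11.2% of promoters) at 37 to 42 and an ETS motif (CCGGAA, in 14.9%) at 15 to 20 after the start. Cxcl1 held an ETS motif at -101 to -96. The RUNX motif (TGTGGT, in 16.8%) was found in Cxcl3 alone, at 10 to 15 after the start, and AP-1 (TGANTCA, in 7.81%) in Ppbp alone, at -204 to -198. No C/EBP motif (TTNNGCAAT, in 2.18%) was found. None of these matches overlapped a κB match. A match describes the sequence and says nothing of binding.

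Values are log2 signals, and a difference of 1 between groups is a 2-fold change. The brightest of 27 bacterial control probe sets reached 2.04 on any array, which is used as the background bound, and a fold against a group with arrays below it is a lower limit. A group mean exceeded the bound for 8820 genes, and over these the correlation between arrays was 0.984 to 0.992 within groups and 0.892 to 0.965 across groups. For Gapdh, the 3' control signal minus the 5' control signal (the Gapdh difference), a sign of how far amplification reached along the transcript, was 4.83 to 4.99 in GFP and 3.81 to 4.17 in W692A. In AML1/ETO it was 4.08 and 4.01 in replicates 1 and 2 and 5.04 in replicate 3. The genes of the sorted surface proteins Sca1 and cKit were not analysed here. Of lineage markers, Cd3e, Ms4a1 and Itgam had no group mean above the bound, whereas the macrophage gene Adgre1 and the lymphoid genes Cd79b, Ighm, Nkg7 and Gzmb were above it in every group. In such bulk samples, fewer cells of a type and less RNA per cell cannot be told apart.

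The AML1/ETO arrays carried the highest mean signal of all 3 groups for each of the 6 chemokine genes. Cxcl2 and Cxcl3 went from near or below background in GFP to bright in AML1/ETO, and were in between in W692A. Cxcl1 did the same over a smaller range, Cxcl5 was bright in AML1/ETO alone, and Ppbp and Pf4 were already measured in GFP cells and brighter with AML1/ETO.

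Cxcl2, also known as MIP-2, is a neutrophil attractant and ligand of Cxcr2. Its signal was 3.28, 3.56 and 2.69 on the GFP arrays, 9.72, 9.28 and 9.23 on the AML1/ETO arrays, and 7.21, 6.29, 6.90 and 6.82 on the W692A arrays. The 3 groups did not overlap, and the lowest AML1/ETO array lay above the highest W692A array. The mean was 6.24 ± 0.23 (SE, n = 3 and 3) higher in AML1/ETO than in GFP, a 75.4-fold difference. In W692A it was 3.62 ± 0.22 (SE, n = 4 and 3) higher than in GFP, or 12.3-fold. Between the constructs, W692A was 6.11-fold lower than AML1/ETO (-2.61 ± 0.22).

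Cxcl3, a close relative with the same receptor, was below the background bound on every GFP array, at 1.09, 1.62 and 1.48. It reached 7.90, 8.05 and 8.04 with AML1/ETO and 5.96, 5.74, 4.95 and 5.75 with W692A. The 3 AML1/ETO values lay within an SD of 0.08, and again no groups overlapped. The difference from GFP was 6.60 ± 0.21 with AML1/ETO, at least 62.0-fold, and 4.20 ± 0.20 with W692A, at least 11.8-fold. W692A was 5.27-fold below AML1/ETO (-2.40 ± 0.20).

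Cxcl1, or KC, is the member most often measured as the mouse counterpart of human interleukin-8. By its brightest probe set it was at 3.90, 3.83 and 3.91 in GFP, at 7.68, 7.35 and 6.35 in AML1/ETO, and at 4.97, 4.70, 4.96 and 4.88 in W692A. AML1/ETO replicate 3, the array with the high Gapdh difference, was the lowest of its group and still above every W692A array. The mean was 9.51-fold higher in AML1/ETO than in GFP (3.25 ± 0.24) and 2.00-fold higher in W692A (1.00 ± 0.22). W692A was 4.76-fold below AML1/ETO (-2.25 ± 0.22). Without AML1/ETO replicate 3 the difference from GFP was 3.64. With the Gapdh difference of each array as a covariate, the difference between W692A and GFP became 0.02, and its part in that result cannot be told apart from the group, since no GFP array had a value as low as those of W692A.

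The 3 probe sets of Cxcl1 gave the same order of groups over different ranges. In the manufacturer's naming, the suffixes of the brightest probe set (_x_at) and of the next (_s_at) mark probes that may also match other transcripts, and cross-hybridisation with the related Cxcl2 and Cxcl3 was not tested. The _s_at probe set of Cxcl1, whose mean over all arrays was nearly the same (5.14 against 5.25), read 3.10, 2.67 and 2.50 in GFP, 8.76, 8.34 and 7.49 in AML1/ETO, and 5.25, 4.16, 4.73 and 4.40 in W692A. By it the mean was 43.3-fold higher with AML1/ETO and 3.67-fold higher with W692A than with GFP. The third probe set of Cxcl1, without such a suffix, was below the bound on all GFP and W692A arrays and read 5.87, 5.27 and 3.75 with AML1/ETO, at least 7.58-fold above either. The size of the difference in Cxcl1 between W692A and GFP therefore depended on the probe set. In all 3 probe sets AML1/ETO replicate 3 was the lowest AML1/ETO array.

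**Figure D1:**
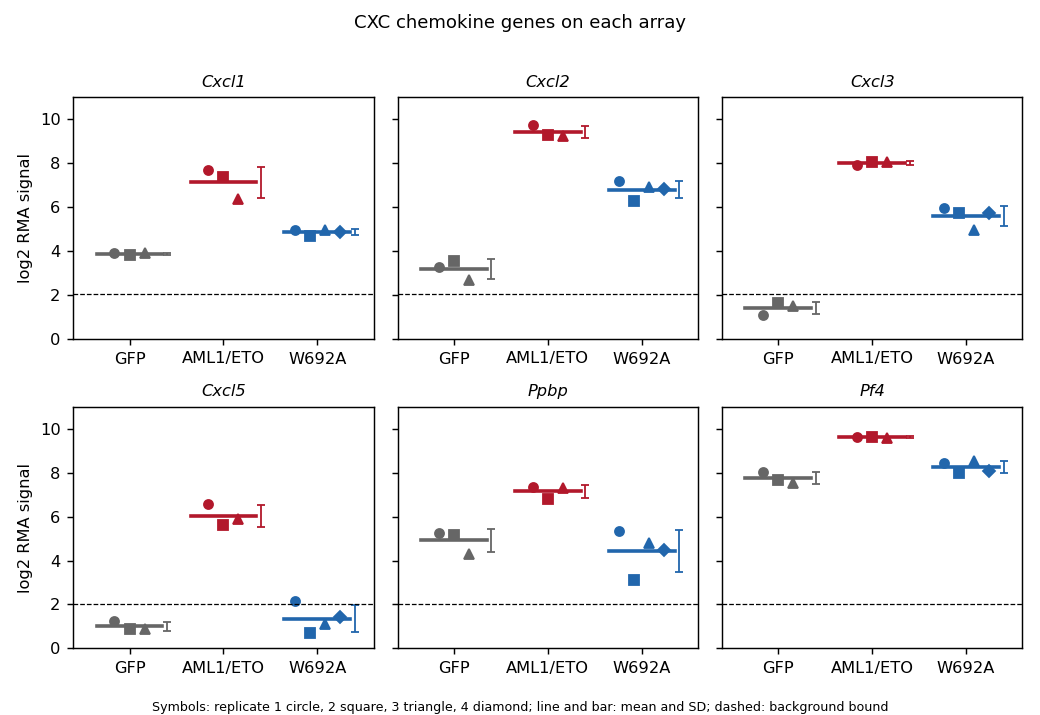
Signal (log2) of the 6 chemokine genes on each of the 10 arrays; symbols are replicates, horizontal lines group means, bars SDs, and the dashed line the background bound of 2.04. Every AML1/ETO array lies above every GFP and W692A array for all 6 genes, and the W692A arrays of Cxcl1, Cxcl2 and Cxcl3 lie between the other groups.

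**Figure D2:**
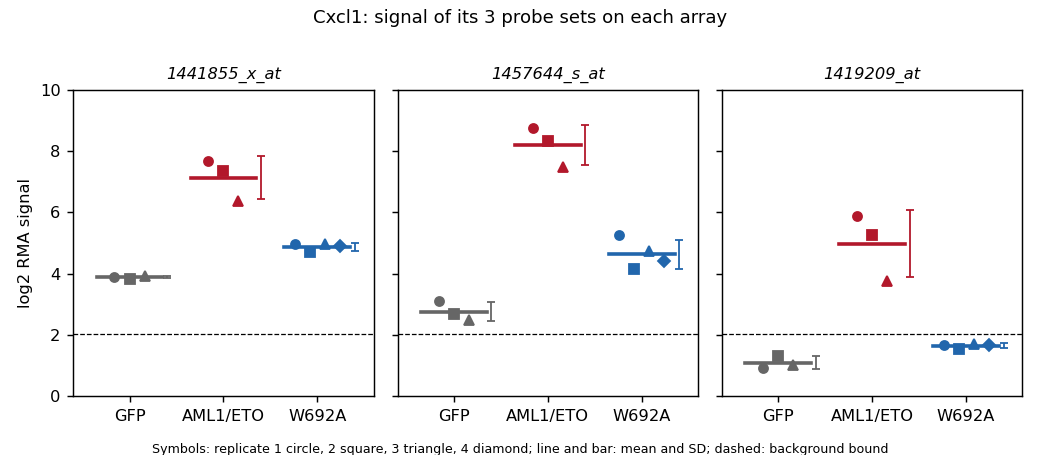
Signal (log2) of the 3 probe sets of Cxcl1 on each array, drawn as in the plot of the 6 genes. All 3 place AML1/ETO highest, with replicate 3 lowest in that group, and the one without an _x or _s suffix is below the dashed bound on every GFP and W692A array.

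Cxcl5, known as LIX in the mouse, differed from the others in that W692A left it at background. It read 1.25, 0.89 and 0.89 in GFP, 6.57, 5.62 and 5.88 in AML1/ETO, and 2.17, 0.70, 1.10 and 1.42 in W692A, where 1 array of 4 was above the bound. AML1/ETO was at least 15.8-fold above GFP (5.01 ± 0.30) and at least 15.5-fold above W692A, the latter difference being -4.68 ± 0.28 for W692A minus AML1/ETO. W692A and GFP overlapped, with a difference of 0.34 ± 0.28. Without W692A replicate 1, the array above the bound, that difference was 0.06.

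Ppbp encodes the precursor of platelet basic protein and of the neutrophil attractant NAP-2. GFP arrays read 5.26, 5.18 and 4.30, AML1/ETO arrays 7.36, 6.83 and 7.29, and W692A arrays 5.35, 3.12, 4.81 and 4.47. AML1/ETO was apart from both other groups, 4.73-fold above GFP (2.24 ± 0.41) and 6.59-fold above W692A (-2.72 ± 0.38 for W692A minus AML1/ETO). W692A and GFP overlapped, and the mean was 0.48 lower in W692A (-0.48 ± 0.38). That difference was -0.04 without W692A replicate 2, the array at 3.12, and -0.78 without GFP replicate 3.

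Pf4 was the steadiest of the 6 within AML1/ETO and was bright in every group. It read 8.05, 7.67 and 7.53 in GFP, 9.63, 9.64 and 9.57 in AML1/ETO, and 8.42, 7.99, 8.54 and 8.10 in W692A. AML1/ETO was 3.64-fold above GFP (1.86 ± 0.16) and 2.55-fold above W692A (-1.35 ± 0.15 for W692A minus AML1/ETO), with no overlap. W692A was 1.43-fold above GFP (0.51 ± 0.15), but W692A replicate 2 lay below GFP replicate 1. With the Gapdh covariate that difference was 0.25.

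In AML1/ETO against GFP, 6 of 6 genes were called higher (limma, adjusted over all genes), where 12.9% of all genes tested were called higher, and 6 of 6 had every array above every GFP array, against 18.1% of all genes. The median difference of the 6 was 4.13, beside -0.02 for all genes. In W692A against GFP, Cxcl1, Cxcl2, Cxcl3 and Pf4 were called higher, 4 of 6, against 5.45% of all genes. Cxcl1, Cxcl2 and Cxcl3 had every W692A array above every GFP array, against 9.85% of all genes, and the median of the 6 was 0.76, beside 0.01. In W692A against AML1/ETO, 6 of 6 were called lower, against 11.1% of all genes, and 6 of 6 had every array below, against 13.5%. The median was -2.50, beside 0.03 for all genes. The first 2 of these comparisons share the GFP arrays, and the third uses the AML1/ETO and W692A arrays again, so it is not independent of them. The genes were chosen from these same comparisons, so nothing is read from the counts.

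Within the W692A group most members had the same highest and lowest array. Replicate 1 was the highest of the 4 arrays for Cxcl1, Cxcl2, Cxcl3, Cxcl5 and Ppbp, and replicate 2 was the lowest for Cxcl1, Cxcl2, Cxcl5, Ppbp and Pf4. On replicate 3, Cxcl3 was lowest and Pf4 highest. How many of all genes follow the same order was not counted, so a shift of whole arrays cannot be told apart. The span from lowest to highest W692A array ran from 3.12 to 5.35 for Ppbp, the widest, and from 4.70 to 4.97 for Cxcl1, the narrowest. Within AML1/ETO, replicate 1 was highest for Cxcl1, Cxcl2, Cxcl5 and Ppbp, and replicate 3 lowest for Cxcl1, Cxcl2 and Pf4. Within GFP, replicate 1 was highest for Cxcl5, Ppbp and Pf4, with Cxcl5 below the bound there, and replicate 3 lowest for Cxcl2, Ppbp and Pf4.

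Along chromosome 5 the measured genes of the cluster run Cxcl5, Ppbp, Pf4, Cxcl3, Cxcl15, Cxcl1 and Cxcl2. Cxcl15, or lungkine, lies between members and was below the bound in all groups, with a difference of -0.02 between AML1/ETO and GFP. Flanking genes were taken by position after the chemokine values had been seen. Of 8 measured flanking genes, 3 had a group mean above the bound, and each rose with AML1/ETO in the limma fit. Mthfd2l, a mitochondrial folate enzyme next to Cxcl2, rose 2.38-fold (1.25, adjusted p = 0.000168), from 3.91 to 4.44 in GFP to 5.08 to 5.64 in AML1/ETO. Rassf6, on the other side next to Cxcl5, was at least 1.30-fold higher (0.95, adjusted p = 0.000987). Afp, the fetal albumin relative alpha-fetoprotein, rose 2.52-fold with AML1/ETO (1.33, adjusted p = 5.44e-05) and 2.31-fold with W692A (1.21, adjusted p = 0.000249). The Afp call for W692A was lost with the Gapdh covariate (adjusted p = 0.075), although the difference was as large, at 1.12. Mthfd2l and Rassf6 differed from GFP by 0.38 and -0.50 in W692A, which did not pass (adjusted p = 0.216 and 0.07). Rassf6 and Mthfd2l were lower in W692A than in AML1/ETO by the same fit (-1.45 and -0.87, adjusted p = 2.8e-05 and 0.00318). Epgn, Ereg, Btc, Afm and Albfm1 had no group mean above the bound, although Albfm1 passed the test with AML1/ETO (0.72, adjusted p = 0.000164).

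**Figure D3:**
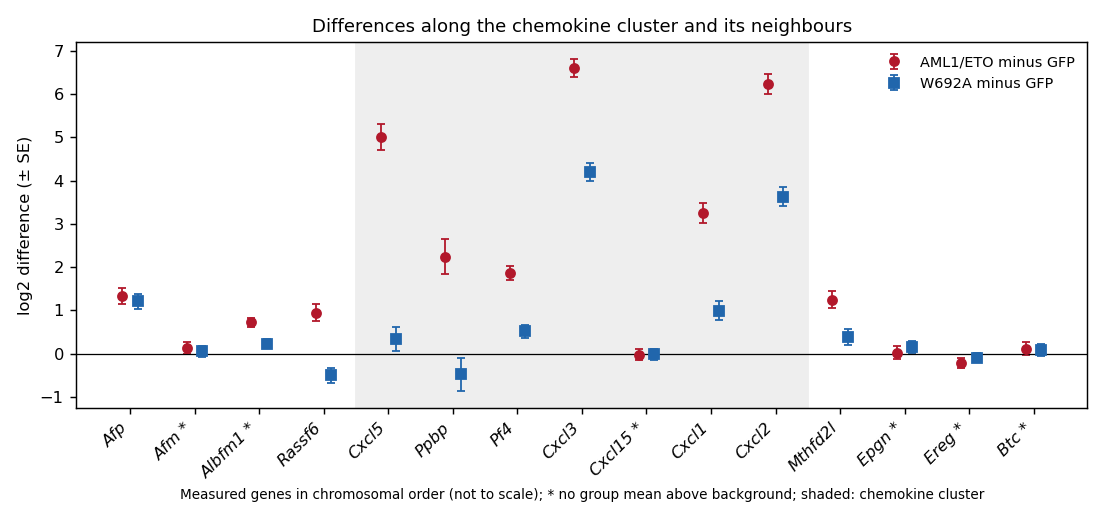
Log2 difference ± SE from GFP for AML1/ETO (red circles) and W692A (blue squares), for the measured genes in their order along chromosome 5, not to scale, with the cluster shaded and genes with no group mean above background starred. Cxcl15 sits at 0 between members, and the flanking genes stay under 1.5 while Cxcl2 reaches 6.24 with AML1/ETO; Cxcl3 and Cxcl5 are plotted against GFP arrays below background.

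The counts of called genes in the lists below are to be read beside the shares of all genes called. Against GFP, 12.9% were higher and 15.8% lower with AML1/ETO, and 5.45% higher and 9.07% lower with W692A. In W692A against AML1/ETO, 9.61% were higher and 11.1% lower. Of the other CXC and CX3C chemokines, 2 of 10 measured rose with AML1/ETO, none fell, and the list's median was 0.22 beside -0.02 for all genes. Cxcl10, an interferon-inducible attractant of T cells through Cxcr3, rose at least 5.55-fold (3.05, adjusted p = 7.6e-07), from 1.21 to 1.67 on the GFP arrays to 4.76, 4.92 and 3.85. Its W692A arrays, at 2.64, 1.94, 1.49 and 2.08, overlapped GFP (0.58, adjusted p = 0.172). Cxcl11, another Cxcr3 ligand, also rose (1.12, adjusted p = 0.000173) but barely passed background. In W692A against AML1/ETO, 3 of 10 fell and none rose. Among those without a group mean above the bound was Cxcl12, the ligand of Cxcr4.

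Among CC and XC chemokines, 2 of 18 rose with AML1/ETO and 2 fell, beside 12.9% and 15.8% of all genes. Ccl2, the monocyte attractant MCP-1, rose 5.89-fold with AML1/ETO (2.56, adjusted p = 7.41e-06) and 2.41-fold with W692A (1.27, adjusted p = 0.00541). Its AML1/ETO arrays were at 4.83, 4.58 and 5.90, with replicate 3 the highest, opposite to Cxcl1. Ccl5, or RANTES, which platelets store and which pairs with Pf4 protein, rose 3.34-fold with AML1/ETO (1.74, adjusted p = 8.84e-06) and not by the test with W692A (0.53, adjusted p = 0.077). Ccl9 fell 1.98-fold with AML1/ETO (-0.99, adjusted p = 0.00303), a call lost with the Gapdh covariate (-0.45, adjusted p = 0.0843). With W692A, 1 of 18 rose and 5 fell against GFP, among them Ccl17, a Ccr4 ligand (-1.18, adjusted p = 2.27e-05). Between the constructs, 1 of 18 was higher and 5 were lower in W692A.

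The receptor of the neutrophil-attracting members was not measured above background in these cells. Cxcr2 read 0.78, 0.78 and 0.75 in GFP, 1.82, 1.31 and 1.67 in AML1/ETO, and 1.22, 1.12, 1.95 and 1.19 in W692A, every value below the bound of 2.04. Its differences from GFP passed the test (0.83, adjusted p = 0.0038, and 0.60, adjusted p = 0.038), but no fold is given at this level, and the W692A call was lost on leaving out any 1 GFP array, on leaving out W692A replicate 3 and with the Gapdh covariate (adjusted p = 0.0915 to 0.106 without a GFP array, 0.0614 and 0.596). Cxcr1 was not analysed here. Of 9 receptors and scavengers measured, 1 rose and 2 fell with AML1/ETO. Ackr1, an erythroid and endothelial protein that binds Cxcl1, Cxcl5 and Ppbp products without signalling, fell at least 1.78-fold (-0.84, adjusted p = 0.000727). With W692A, 1 of 9 rose and 1 fell, and against AML1/ETO none rose and 1 fell. The share of all genes that fell was 15.8% for AML1/ETO and 9.07% for W692A against GFP, and 9.61% of genes were higher in W692A than in AML1/ETO.

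The inducers of these chemokines and their receptors changed in both directions. Of 23 measured genes, 8 rose and 4 fell with AML1/ETO, and the median was 0.09 beside -0.02 for all genes. Il1b, which encodes interleukin-1 beta, read 3.65, 3.36 and 3.28 in GFP, 7.43, 6.31 and 5.64 in AML1/ETO, and 5.37, 4.37, 5.03 and 4.21 in W692A. It rose 8.19-fold with AML1/ETO (3.03, adjusted p = 1.11e-05) and 2.50-fold with W692A (1.32, adjusted p = 0.0158), and was 3.28-fold lower in W692A than in AML1/ETO (-1.71, adjusted p = 0.0018). The rise with W692A was lost without GFP replicate 2 (adjusted p = 0.0596) or 3 (adjusted p = 0.0571) and was 0.06 with the Gapdh covariate. As for Cxcl1, AML1/ETO replicate 3 was the lowest array of its group.

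Il1a, the other interleukin-1, was above the bound with AML1/ETO alone (3.87, 3.39 and 3.39), at least 2.84-fold above GFP (2.83, adjusted p = 7.93e-09). Its W692A arrays were all below the bound, as those of Cxcl5 were on 3 of 4 arrays. The receptor Il1r1 went the other way. It fell from 6.92, 6.47 and 6.68 in GFP to 4.18, 3.91 and 3.73 in AML1/ETO, 6.71-fold (-2.75, adjusted p = 4.74e-09), and to 3.87, 3.84, 3.55 and 3.92 in W692A, 7.43-fold (-2.89, adjusted p = 5.92e-09). Il1rap, the accessory chain of that receptor, rose 3.45-fold with AML1/ETO (1.79, adjusted p = 1.87e-08) and differed by -0.23 in W692A (adjusted p = 0.189).

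Cd14, the co-receptor for lipopolysaccharide, rose 7.07-fold with AML1/ETO (2.82, adjusted p = 3.17e-06) and 2.66-fold with W692A (1.41, adjusted p = 0.00278, a call lost with the Gapdh covariate, where the difference was 0.37 and the adjusted p 0.782). The remaining genes that rose with AML1/ETO were Il1rn, the interleukin-1 receptor antagonist, and Tlr2, Tlr4 and Csf1, named after their values were seen. The Toll-like receptors Tlr2 and Tlr4 rose 4.24-fold and 4.19-fold (adjusted p = 5.26e-07 and 5.8e-09). In W692A they differed from GFP by 0.51 and 0.31, which did not pass (adjusted p = 0.0611 and 0.0805). Il6, also supplied in the medium, read 4.38, 4.61 and 4.35 in GFP, 4.44, 4.79 and 6.31 in AML1/ETO, and 3.58, 3.42, 2.50 and 2.82 in W692A. It did not pass with AML1/ETO (0.74, adjusted p = 0.18) and fell 2.57-fold with W692A (-1.36, adjusted p = 0.0158), a call lost without GFP replicate 1 or 2 (adjusted p = 0.0527 and 0.0666) and turned to 0.09 with the Gapdh covariate. Tnf, Csf2 and Csf3, other inducers, had no group mean above the bound. With W692A, 4 of 23 genes rose and 4 fell against GFP, and 2 rose and 9 fell against AML1/ETO.

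**Figure D4:**
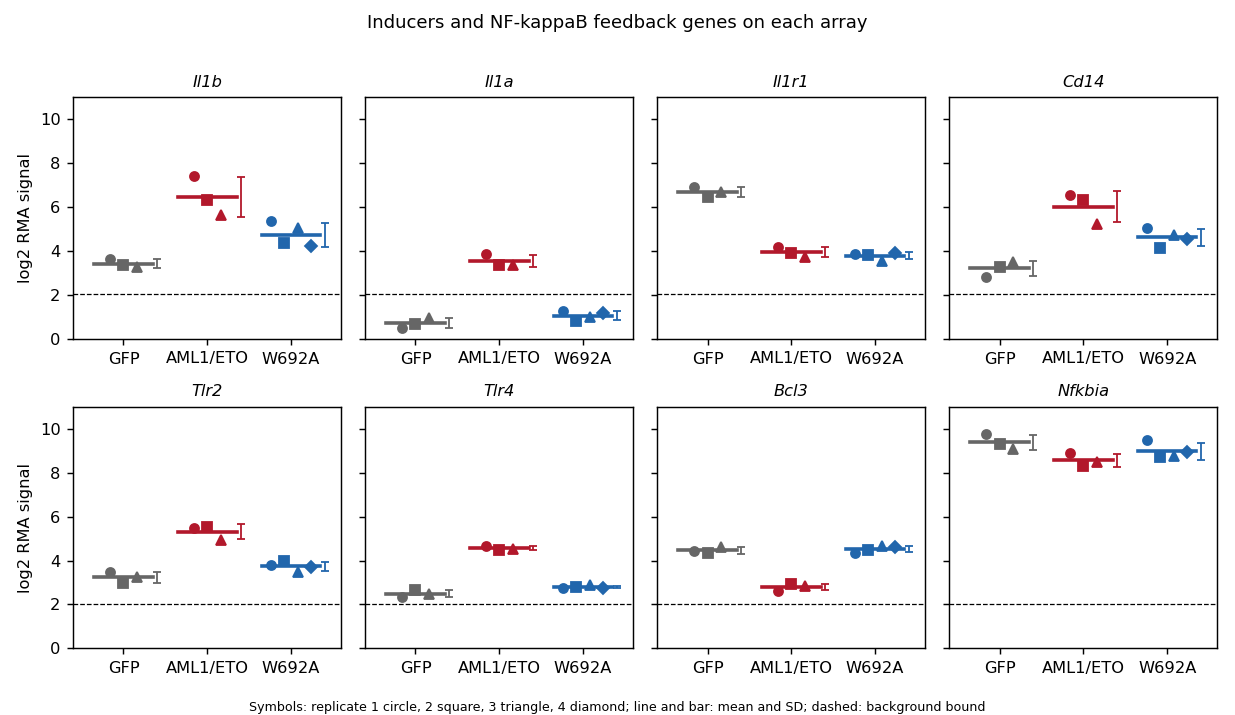
Signal (log2) on each array of 8 genes upstream of the chemokines, drawn as in the plot of the 6 genes, with the dashed background bound. By mean, Il1b, Il1a, Cd14, Tlr2 and Tlr4 are highest in AML1/ETO, Il1r1 is lower in both constructs than in GFP, and Bcl3 and Nfkbia are lowest in AML1/ETO.

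The list of NF-κB subunits and feedback genes was balanced in AML1/ETO, with 3 of 13 up and 3 down and a median of 0.05. Rela, the p65 subunit, rose 1.57-fold (0.65, adjusted p = 0.00159). Nfkbia, which encodes the inhibitor IκBα and is itself an NF-κB target, fell 1.77-fold (-0.83, adjusted p = 0.00875), from 9.75, 9.32 and 9.10 to 8.90, 8.33 and 8.47. Its 5 probe sets were all lower in AML1/ETO, though the call was lost without GFP replicate 1 (adjusted p = 0.0566). In W692A the brightest probe set of Nfkbia overlapped GFP (-0.42, adjusted p = 0.21). It passed the test only without W692A replicate 1, its highest array (-0.60, adjusted p = 0.0374). Some other probe sets had every W692A array below every GFP array (8.07 to 8.26 against 8.33 to 8.43, and 2.52 to 3.10 against 3.51 to 4.05). The remaining ones overlapped. By the mean of its probe sets, Nfkbia was higher in W692A than in AML1/ETO (0.64, adjusted p = 0.00716), which did not pass by the brightest. Bcl3, a nuclear IκB-like cofactor, fell 3.20-fold with AML1/ETO (-1.68, adjusted p = 1.64e-07) and was at the GFP level in W692A (0.05, adjusted p = 0.865), 3.31-fold above AML1/ETO (1.72, adjusted p = 1.68e-07). Nfkbie, another inhibitor, fell with AML1/ETO (-0.92, adjusted p = 3.1e-05) and with W692A (-0.63, adjusted p = 0.00159, a call lost with the Gapdh covariate, where the difference was -0.71 and the adjusted p 0.0865). Tnfaip3, the feedback enzyme A20, did not pass with AML1/ETO (0.22, adjusted p = 0.262) and fell 1.83-fold with W692A (-0.87, adjusted p = 0.00016). In all, none of 13 rose and 4 fell with W692A against GFP, and 1 rose and 6 fell against AML1/ETO.

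Of 12 genes for decay or stabilisation of chemokine mRNA, 3 rose and 3 fell with AML1/ETO, beside 12.9% and 15.8% of all genes. The Zfp36 family binds AU-rich elements and speeds decay, and its members differed in direction. Zfp36l1 rose 2.23-fold (1.16, adjusted p = 1.48e-05), whereas Zfp36l2 fell 4.03-fold (-2.01, adjusted p = 1.3e-07), from 7.75, 8.04 and 7.68 to 5.48, 5.94 and 6.02. In W692A Zfp36l2 was at 7.28, 7.22, 7.02 and 7.12, between the other groups, 1.58-fold below GFP (-0.66, adjusted p = 0.00536). That last call was lost with the mean of its probe sets (-0.16, adjusted p = 0.359) and with the Gapdh covariate (-0.40, adjusted p = 0.565). Between W692A and GFP 1 of 12 rose and 1 fell, and between W692A and AML1/ETO 2 rose and 1 fell.

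Ppbp and Pf4 are genes of the megakaryocyte lineage, and other genes of that lineage differed in direction from them. Of 18 measured megakaryocyte and platelet genes, 3 rose and 9 fell with AML1/ETO, with a median of -0.60 beside -0.02 for all genes. The mean over the list was 3.65 to 3.78 on the GFP arrays, 2.88 to 3.20 on the AML1/ETO arrays and 3.13 to 3.31 on the W692A arrays. Itga2b, the integrin CD41, fell 2.48-fold (-1.31, adjusted p = 2.41e-06), from 4.41, 4.07 and 3.93 to 2.80, 2.78 and 2.90. Its partner Itgb3 fell 6.70-fold (-2.74, adjusted p = 1.32e-06), P-selectin (Selp) 10.3-fold (-3.36, adjusted p = 3.42e-09) and the transcription factor Nfe2 8.06-fold (-3.01, adjusted p = 9.25e-09). P2ry1, an ADP receptor, rose at least 3.34-fold (2.56, adjusted p = 1.22e-06) and Treml1, stored in alpha granules, 2.46-fold (1.30, adjusted p = 3.72e-05).

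With W692A, 1 of these 18 genes rose and 9 fell against GFP, with a median of -0.46. Itga2b fell 1.98-fold (-0.99, adjusted p = 7.43e-05), Selp 3.40-fold (-1.77, adjusted p = 5.47e-06) and Nfe2 3.29-fold (-1.72, adjusted p = 5.93e-06). Against AML1/ETO, 6 rose and 1 fell in W692A, among them Selp (1.60, adjusted p = 1e-05) and Nfe2 (1.29, adjusted p = 5.8e-05), while Pf4 and Ppbp were lower. Gp9 fell by the test (-1.03 with AML1/ETO, adjusted p = 0.00097, and -0.93 with W692A, adjusted p = 0.00349, or -1.06 and adjusted p = 0.127 with the Gapdh covariate) but its group means were all below the bound. Thbs1, Gp5, Gp6 and Tubb1 also had no group mean above the bound.

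**Figure D5:**
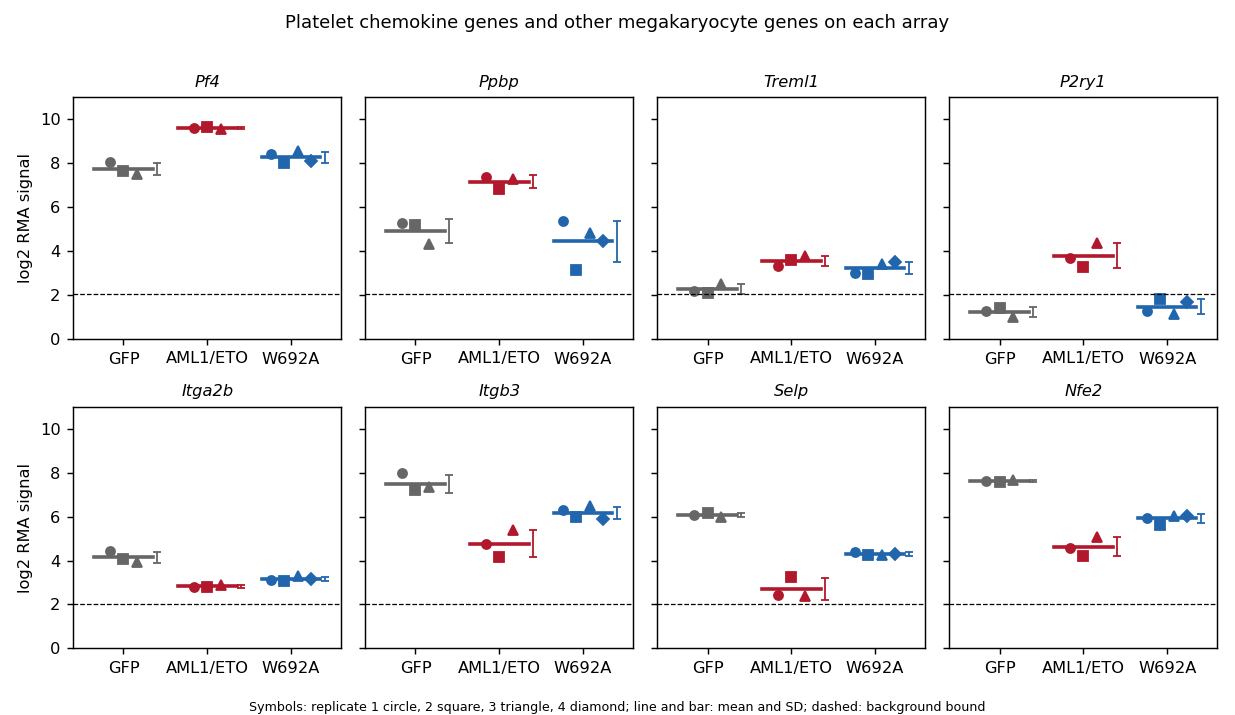
Signal (log2) on each array of Pf4, Ppbp and 6 other megakaryocyte genes, drawn as in the plot of the 6 chemokine genes. By mean, Pf4, Ppbp, Treml1 and P2ry1 are highest in AML1/ETO, though the arrays of Treml1 overlap W692A, and Itga2b, Itgb3, Selp and Nfe2 are highest in GFP.

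Of 14 genes for the storage and release of platelet granule contents, 5 rose and 6 fell with AML1/ETO. Srgn, the serglycin core that holds Pf4 in granules, rose 1.62-fold (0.69, adjusted p = 0.00032) and Snap23, a membrane fusion protein of granule release, 3.92-fold (1.97, adjusted p = 1.86e-06). Nbeal2, needed for alpha granules, fell at least 2.10-fold (-1.83, adjusted p = 5.13e-07), and Unc13d, a priming factor, at least 4.03-fold (-2.09, adjusted p = 6.55e-07). With W692A, 2 rose and 6 fell against GFP, and 1 rose and 4 fell against AML1/ETO. Nbeal2 also fell with W692A, at least 2.10-fold (-1.65, adjusted p = 2.77e-06), and was below the bound on every array of both constructs.

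Markers of other cells moved alongside the chemokines, and their part in the results was not tested. Of 15 monocyte and macrophage genes, 5 rose and 1 fell with AML1/ETO and 4 rose with W692A. The list mean was 2.89 to 3.07 in GFP, 3.42 to 3.62 in AML1/ETO and 3.37 to 3.46 in W692A. Adgre1 rose 5.47-fold and 3.86-fold (adjusted p = 4.06e-09 and 1.01e-07) and Lyz2, lysozyme, 4.94-fold with AML1/ETO (adjusted p = 4.54e-07). Csf1r, the macrophage growth factor receptor, was highest in W692A, where it rose 2.18-fold (adjusted p = 9.62e-06). C1qa, C1qb, C1qc, Marco and Ccr2 had no group mean above the bound.

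Of 11 mast cell and basophil genes, 5 rose with AML1/ETO, 4 with W692A, and 6 were lower in W692A than in AML1/ETO. The shares of all genes were 12.9%, 5.45% and 11.1%. Of the 6 that were lower, Mcpt8, a basophil protease, had its lowest mean in W692A (2.66, beside 3.33 in GFP). The list mean was 2.97 to 3.35 in GFP, 4.28 to 4.90 in AML1/ETO and 3.66 to 3.77 in W692A. Hdc, the histamine-forming enzyme, rose 16.6-fold with AML1/ETO (4.05, adjusted p = 7.35e-11) and 3.85-fold with W692A (1.95, adjusted p = 3.36e-07). Cpa3, a mast cell protease, rose 8.56-fold and 3.48-fold (adjusted p = 1.5e-08 and 7.99e-06). The mature mast cell proteases Cma1, Mcpt4, Tpsb2 and Tpsab1 had no group mean above the bound.

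Neutrophil genes, which mark the cells these chemokines attract, moved in both directions. Of 17 measured, 2 rose and 7 fell with AML1/ETO, with a median of -0.58, and 3 rose and 7 fell with W692A. The list mean was 4.68 to 4.96 in GFP, 4.28 to 4.94 in AML1/ETO and 4.28 to 4.65 in W692A. Lcn2, a granule siderophore-binding protein and NF-κB target, rose 8.46-fold with AML1/ETO (3.08, adjusted p = 2.95e-09). Elane, neutrophil elastase, fell 2.32-fold with AML1/ETO (-1.21, adjusted p = 0.000476) and 3.75-fold with W692A (-1.91, adjusted p = 1.33e-05). Ngp, another granule protein, fell 8.70-fold and 4.30-fold (adjusted p = 0.00088 and 0.0198). Its AML1/ETO arrays read 3.15, 2.60 and 5.88, with replicate 3, the array with the GFP-like Gapdh difference, nearest to GFP, and the fall was 17.4-fold without that array and 5.60-fold without replicate 2. Chil3 and S100a8, other neutrophil genes, were also highest on replicate 3 in that group (7.61, 7.15 and 9.86, and 4.53, 4.13 and 6.37), where Chil3 lay just above and S100a8 within the range of the GFP arrays. The W692A call of Ngp was lost without GFP replicate 1 or 3 or W692A replicate 4 (adjusted p = 0.101, 0.064 and 0.062), was lost with a variance prior with trend (0.124) and turned to 0.18 with the Gapdh covariate.

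Stromal and endothelial genes, whose cells also make these chemokines, were mostly below the bound, 12 of 16. The list mean was 1.36 to 1.40 in GFP, 1.64 to 1.73 in AML1/ETO and 1.24 to 1.33 in W692A. All these list means were below the bound. With AML1/ETO 6 rose and 2 fell, beside 12.9% and 15.8% of all genes. Of the 6 that rose, only 2 had a group mean above the bound. Sparc and Col1a2, matrix proteins, rose at least 5.86-fold and 8.15-fold (adjusted p = 3.37e-11 and 7.35e-11), while Pdgfrb fell at least 3.76-fold (adjusted p = 2.16e-07). The defining genes Cdh5, Pecam1, Col1a1, Col3a1, Pdgfra, Lum and Dcn had no group mean above the bound. Of 11 B and T lymphoid genes none rose and 4 fell with either construct, and of 8 erythroid genes none rose and 3 fell, led by Hemgn (-5.50 with AML1/ETO, adjusted p = 6.79e-11).

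The genes whose pattern over the 10 arrays was most like that of Cxcl2, after each gene's GFP mean was subtracted, were Vegfc, Rhoj, Cd59a, Ctla2b and Epas1, out of 8814 compared. Their root mean square distances were 0.38, 0.38, 0.66, 0.72 and 0.73 on the log2 scale. Vegfc, a lymphatic growth factor, read 2.83, 3.36 and 2.52 in GFP, 8.68, 8.93 and 8.98 in AML1/ETO, and 6.78, 6.83, 6.51 and 6.80 in W692A. Rhoj differed from GFP by 6.13 with AML1/ETO and 3.54 with W692A, beside 6.24 and 3.62 for Cxcl2. The genes nearest to Pf4 were Slc18a1, a vesicular monoamine transporter, Plgrkt, a plasminogen receptor, Ankrd33b, Ccl5 and Dnajb4, a chaperone, at 0.15 to 0.17. Of these Ccl5, like Pf4, is a platelet-stored chemokine, and it differed from GFP by 1.74 and 0.53, beside 1.86 and 0.51 for Pf4. Nearness describes these 10 arrays only.

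Runx1, the gene of the AML1 part of the fusion, was 1.90-fold higher with AML1/ETO (0.93, adjusted p = 6.46e-05) and 2.10-fold higher with W692A (1.07, adjusted p = 3.04e-05) than with GFP. These values come from its brightest probe set, by which the constructs did not differ in the test (0.15 ± 0.12, adjusted p = 0.501). Another probe set read 6.51, 6.26 and 6.32 with AML1/ETO and 5.73, 5.83, 5.89 and 5.78 with W692A, without overlap. A further one read 4.86, 5.02 and 5.14 against 4.72, 4.64, 4.71 and 4.23, also without overlap. In the remaining probe sets of Runx1 the constructs overlapped. Whether any of these probe sets reads the retroviral transcript was not tested.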

How the data were processed

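RNA of 10 samples was measured on Affymetrix mouse arrays, 1 per sample, in the groups GFP (3), AML1/ETO (3) and W692A (4), taken from the titles. Transductions were independent per the labels, which do not say whether their mice differed, so p-values measure the spread between transductions. The authors' deposited values are log2 signals per probe set, normalized with RMA per the submitters' processing notes. The base was taken as 2, since the highest value, 12.77, would exceed a 16-bit scanner as a natural logarithm. RMA gives all arrays 1 distribution, which hides differences in total RNA. The precision is limited by the number of arrays.

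The table holds 45101 probe sets, of which 64 were controls, 932 had several gene symbols and 9160 no listed gene, and these were left out. The other 34945 gave 18193 genes, each by its probe set with the highest mean. Symbols were updated through gene identifiers for 34741. Groups were compared with limma 3.58.1 in R 4.3.3 (lmFit and eBayes, 1 fit of 3 groups, 7 residual and 7.53 prior degrees of freedom), adjusted by Benjamini-Hochberg over all genes at a threshold of 0.05, and the fit was tested on simulated data. No filter on low values was applied. The members, lists, motifs and the background bound were chosen with earlier results of these data known. Named genes were, per list and comparison, up to 3 that rose and 3 that fell most, called, with no overlap of groups and a group mean above the bound, plus Itga2b, Gp9, Cxcr2, Il1b, Nfkbia and Runx1, and the 5 genes nearest to Cxcl2 and to Pf4. Not every gene the rule allows is named. Tlr2, Tlr4, Csf1, Cxcl15, S100a8, Mcpt8, Cd79b and the flanking genes were named after their values were seen. Alternatives were dropping the dimmest 40% of genes, quantile normalization again, median subtraction, means of probe sets, a variance prior with trend, array weights, a fit of each pair of groups, a block for the replicate number, a minimum of 1.5-fold, flooring at the bound and leaving out each array. Covariates for the spike-in level and the Gapdh difference were added after seeing the data.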

Additional observations from a re-analysis of the deposited data

Results flagged for a closer look

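In 96 groups of 4 W692A arrays, 1 per gene or probe set tested, a single array stood apart by Dixon's ratio in 3, and in none of the 8 probe sets of the chemokines. Chance flags about 1 in 20 groups. For Nfkbie, an NF-κB inhibitor, W692A replicate 2 was lowest at 6.32. For Rab27a, a GTPase of granule release, W692A replicate 1 was lowest at 1.68, below the background bound. For Vegfc, the gene nearest in pattern to Cxcl2, W692A replicate 3 was lowest at 6.51.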

How the results depend on the processing

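All 384 values of the 18 chemokine differences under the alternatives kept their sign, and 18 moved by more than 1 SD. Many of these values could not change. A variance prior with trend, a fit of each pair of groups and dropping dim genes leave a difference of means as it was. So does leaving out an array of the group not compared. The number of kept signs is therefore no measure of robustness. For Cxcl1, AML1/ETO minus GFP was 4.19 with the mean of its probe sets, 2.66 with the Gapdh covariate, 3.87 and 5.44 by the other probe sets, and 2.97 to 3.64 on leaving out each array. W692A minus GFP was 0.021 with the Gapdh covariate and 0.56 and 1.88 by the other probe sets. W692A minus AML1/ETO was -3.04 with the mean, -2.64 with the Gapdh covariate, -3.32 and -3.56 by the other probe sets, and -2.64 to -1.98 on leaving out each array. Pf4 in W692A minus GFP was 0.25 with the Gapdh covariate. With values floored at the bound, Cxcl3 was 5.96 (AML1/ETO) and 3.56 (W692A) above GFP, and Cxcl5 was 3.98 above GFP in AML1/ETO and -3.95 in W692A minus AML1/ETO, since flooring raises only the dim group.

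Genes called between W692A and GFP numbered 2642, 506 with the Gapdh covariate and 1637 with a 1.5-fold minimum, which also left 2317 of 3765 between W692A and AML1/ETO. With the Gapdh covariate the W692A minus GFP differences of Il1rn, Il6 and Ngp changed sign, to -0.28, 0.090 and 0.18. The cause was not tested. Of 208 called differences of the genes considered for naming, 146 were not lost under any alternative tried on them. With the Gapdh covariate 46 were lost, on leaving out 1 array 38, and under another alternative 29, and these counts overlap. The 1.5-fold minimum and flooring at the bound were not tried on these differences, and a gene dropped as dim was not counted as lost. The deviations of arrays numbered 1 correlated in all 3 pairs of groups (0.255, 0.269 and 0.443), but those of the other same-numbered arrays ranged from -0.119 to 0.328, and not every array correlated best with its own number, so the arrays were taken to share only a number. With the replicate number as a block, 5272, 2344 and 3509 genes were called, beside 5207, 2642 and 3765 without pairing. Of the calls the text gives, the fall of Il6 with W692A was lost under that block (adjusted p = 0.0557 by limma). Probe sets below the bound carry no fold in either direction.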
